A study of Mus musculus with 8 samples.

Results

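The genes of the enzymes that cut and rejoin intron-containing tRNAs were examined in mouse embryonic stem cells (mESCs) cultured in space or on the ground. They are 9 genes, taken by name from a count table of 50686 gene identifiers: the endonuclease subunit genes Tsen15, Tsen34 and Tsen54, the RNA kinase gene Clp1, the ligase gene Rtcb with its complex members Ddx1 and Fam98b and its activator Zbtb8os, and the phosphotransferase gene Trpt1. All 9 were found and all 9 passed the filter on low counts, which kept 20473 genes.

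Each of the 8 libraries is 1 combination of 3 variables. Cells were wild-type mESCs (R9wt) or Rad9-/- mESCs (R9del), grown for 1 day (D1) or 5 days (D5) in space or on the ground. Below, these variables are called genotype, culture duration and location. The space cultures flew in the payload on the SJ-10 satellite, and the paper states that ground cultures were also kept in the payload, by the same procedure. It lists microgravity, space radiation, other environmental stress and the vibration of launch and of return for the space group only. These parts of location cannot be told apart here. In both, cells were fixed in RNAlater inside the culture device and stored cold until RNA extraction. D1 and D5 cultures sat in separate device groups, each with its own temperature control, and were seeded with different cell numbers, so culture duration and device group cannot be told apart. At D5 the seeded number also differed between R9wt and R9del, so genotype and seeding cannot be told apart in the D5 pairs. No condition was cultured or sequenced in replicate, and each group of 4 libraries below therefore pools cultures that differ in the other 2 variables. The p-values measure the spread among these 4 cultures. Whether the R9del cells are 1 clone is not given in the sources used here.

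Some precursor tRNAs carry an intron next to the anticodon, and the tRNA cannot be used in translation until it is removed. In mammals the TSEN endonuclease complex makes the cuts, with TSEN34 carrying a catalytic site and TSEN15 and TSEN54 as structural subunits. CLP1 binds this complex and phosphorylates RNA 5′ ends. The cut exons are then joined directly by RTCB, which works in a complex with the helicase DDX1, FAM98B and RTRAF and is activated by archease, the product of Zbtb8os. TRPT1 is the vertebrate counterpart of the yeast enzyme that removes the 2′-phosphate left by the other, yeast-type route of ligation. Rtcb also joins the cut Xbp1 mRNA in the unfolded protein response. Rtraf is not among the 9 genes and is given with the ligase complex.

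Depth was 58238440 to 67640365 counts in the 4 space libraries and 65678502 to 96416907 in the 4 ground libraries, so the space libraries were on the whole shallower. Expression levels are given in CPM (counts scaled to the library's total) after TMM scaling, a correction for library composition. Rad9a, the deleted gene, was at 84.2 ± 9.72 CPM in R9wt and 25.0 ± 3.39 CPM in R9del (SD, n = 4 each), so R9del libraries retained reads on this gene. The deleted exons are not given in the sources used here, so these reads cannot be placed inside or outside the deletion. The exons of Rad9a also overlap Ppp1ca on the other strand over 10.9% of their length, and strand handling is not stated. The 9 mESC markers summed to 5319 to 7851 CPM on the ground and 4504 to 6133 CPM in space. Markers of other cell types were far lower in sum: fibroblast feeder markers reached at most 49.5 CPM, trophoblast markers at most 156 CPM and primitive endoderm markers at most 225 CPM, the last 2 maxima both in space libraries. None of these 4 marker lists had a gene at 0 in all libraries. In space against ground, 1 of 9 mESC markers was higher (Esrrb, 42.0 ± 5.60 to 96.2 ± 16.6 CPM, adjusted p = 0.00635 by edgeR's test) and 1 lower (Sox2, 204 ± 43.5 to 106 ± 18.4 CPM, adjusted p = 0.0317). Of the tested markers of other cells, 1 of 6 for primitive endoderm was lower (Sox17, 4.05 ± 1.61 to 0.274 ± 0.335 CPM, adjusted p = 0.0187), 1 of 4 for trophoblast was lower (Cdx2, 1.51 ± 1.02 to 0.189 ± 0.133 CPM, adjusted p = 0.0329) and 0 of 4 for fibroblasts passed. Over all genes the same test called 5.13% lower and 1.19% higher in space. The other 5 primitive endoderm markers had values above 0 without passing, from 0.38 for Gata4 to 1.81 for Pdgfra (adjusted p = 0.0891) on the log2 scale, and the list's median was 1.29, with sums of 29.5 to 64.9 CPM on the ground and 17.2 to 225 CPM in space. The trophoblast markers that did not pass went both ways. Ascl2 was at -1.32 (adjusted p = 0.0778 by edgeR's test), Eomes at 0.46 and Hand1 at 0.91 (23.8 ± 26.3 to 44.9 ± 47.9 CPM). The part of cell state or of such cells in the results was not tested.

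The genes did not share 1 level. On the ground, in CPM per kb of exon sequence, Rtcb (119 ± 8.82) and Ddx1 (105 ± 4.08) stood highest, without overlap between them (114 to 132 and 101 to 111). Tsen15 (26.3 ± 12.1), Tsen54 (24.8 ± 6.15) and Tsen34 (24.5 ± 1.91) followed at a lower level, where their values overlapped. Clp1 (10.2 ± 3.21) lay below these 3 genes in all 4 ground libraries. Zbtb8os (6.56 ± 0.990), Trpt1 (4.37 ± 1.81) and Fam98b (1.91 ± 0.386) were lowest (SD, n = 4 for each), and of the neighbours in this order Fam98b stood below Trpt1 without overlap. In space, Rtcb (149 ± 22.1) and Ddx1 (147 ± 13.7) were again at the top, while Tsen54 (5.71 ± 1.11) lay above the mean of Zbtb8os (4.90 ± 0.830), with overlap, and Tsen34 (2.24 ± 1.02) between the means of Trpt1 (3.67 ± 0.999) and Fam98b (1.76 ± 0.369), overlapping both.

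**Figure D1:**
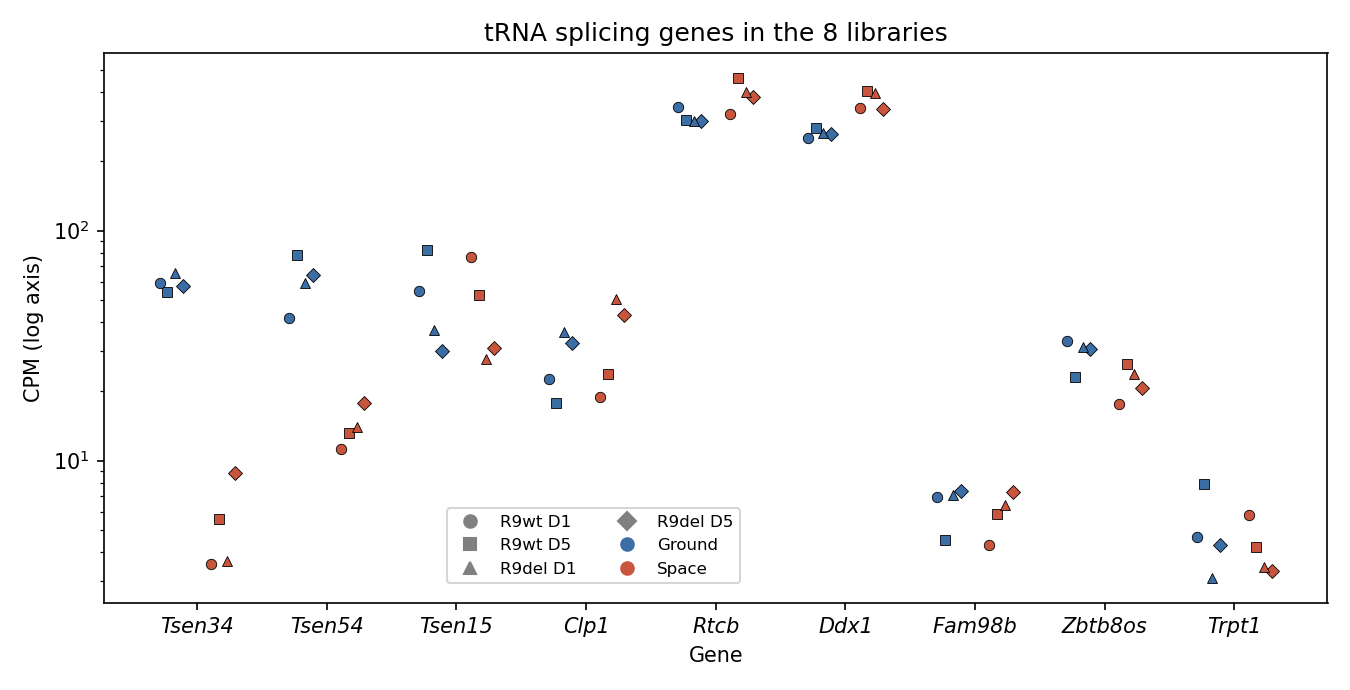
CPM of the 9 genes on a log axis, 1 point for each of the 8 libraries, with ground in blue, space in red and the marker giving genotype and day. Tsen34 and Tsen54 are the genes whose space points all lie far below their ground points, and the points of Tsen15, Clp1, Trpt1 and Fam98b are split by genotype within each colour.

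The first comparison asked which genes differed between the space and ground groups regardless of genotype and duration. Tsen34 and Tsen54 fell in space, by 10.9-fold and 4.34-fold, and the other 7 genes did not pass the test. The fall therefore concerned 1 catalytic and 1 structural subunit of the endonuclease, while the log2 fold changes of the other 7 genes lay between -0.42 for Zbtb8os and 0.48 for Ddx1.

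Tsen34 (chr7:3644977-3652625 in mm9, plus strand) encodes a catalytic subunit. On the ground it was at 59.2 CPM in R9wt D1, 54.3 in R9wt D5, 65.3 in R9del D1 and 57.6 in R9del D5. In space the same 4 conditions gave 3.54, 5.60, 3.67 and 8.84 CPM, from 233, 340, 257 and 516 counts. The groups did not overlap, and the lowest ground library was several times the highest space library. The log2 fold change was -3.45 (SE 0.34, adjusted p = 2.33e-04 in the quasi-likelihood test of edgeR, adjusted by Benjamini-Hochberg over all 20473 genes), with means of 59.1 ± 4.62 CPM on the ground and 5.41 ± 2.47 CPM in space (SD, n = 4 each). Matched on genotype and day, the log2 differences were -4.05 (R9wt D1), -4.14 (R9del D1), -3.27 (R9wt D5) and -2.70 (R9del D5), so the fall was seen in both genotypes and within each device group. The gene's exons overlap those of Mboat7 on the other strand over 6.2% of their length, and how the authors' counting treated strand is not stated. Mboat7 itself was at 77.7 ± 21.1 CPM on the ground and 44.0 ± 13.7 CPM in space (log2 fold change -0.82, adjusted p = 0.130 by edgeR's test).

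Tsen54 (chr11:115676038-115684408, plus strand) encodes a structural subunit whose human counterpart is mutated in pontocerebellar hypoplasia. Its ground levels were 41.7 CPM in R9wt D1, 78.3 in R9wt D5, 59.4 in R9del D1 and 64.4 in R9del D5. Its space levels were 11.2, 13.2, 14.0 and 17.7 CPM in the same order. Again no space library reached the lowest ground library, although the ground cultures varied more than for Tsen34. The log2 fold change was -2.12 (SE 0.26, adjusted p = 8.65e-04 by edgeR's test), from 60.9 ± 15.1 to 14.0 ± 2.73 CPM (SD, n = 4 each). The matched differences of -1.89 (R9wt D1), -2.08 (R9del D1), -2.57 (R9wt D5) and -1.86 (R9del D5) lay closer together than those of Tsen34. No other gene model overlaps its exons.

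These 2 calls are to be read against all genes tested. Of the 20473, 5.13% were called lower and 1.19% higher in space at an adjusted p under 0.05. At the thresholds of the study (2-fold or more, with an unadjusted p under 0.05) 7.97% were lower and 2.91% higher, and the same 2 of the 9 genes passed, both lower. Space levels lay wholly below ground levels for 8.90% of all genes and wholly above for 5.69%. A fall of at least 2-fold in all 4 matched pairs was found for 4.66% of genes, with Tsen34 and Tsen54 among them. The median log2 fold change was -0.12 over the 9 genes and 0.05 over all genes. In an exact two-sided permutation test on log2 CPM both genes gave p = 0.0286, the smallest that 4 against 4 libraries allow, and p = 0.154 after adjustment over the 27 tests of 9 genes in 3 comparisons. Any gene whose groups do not overlap gives this p, so it adds nothing to the lack of overlap. Ddx1 in space against ground, and Tsen15 and Clp1 between genotypes, gave the same values without a call by the quasi-likelihood test.

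Library depth, the share of mitochondrial counts and the GC content of called genes also differed with location. Depth was lower in space in 3 of 4 matched pairs, the exception being R9del D1 (65678502 counts on the ground and 67640365 in space). The mitochondrial share was 2.47% (R9wt D1), 1.20% (R9wt D5), 3.39% (R9del D1) and 2.46% (R9del D5) on the ground and 1.37%, 1.12%, 1.82% and 1.46% in space, lower in all 4 pairs. Among 15536 protein-coding genes, 16.8% of those in the top bin of 5, ordered by GC content of the most GC-rich 200-nt window of a gene, were called lower in space, against 1.22% in the bottom bin. That window held 76.5% GC in Tsen34 and 76.0% in Tsen54, both in the top bin, which starts at 75%, and 72.5% in Tsen15, 67.5% in Fam98b, 66.5% in Trpt1, 63.0% in Zbtb8os, 62.5% in Ddx1, 59.0% in Rtcb and 57.5% in Clp1. With each library centred within 20 bins of this GC content, the log2 fold changes were -2.81 for Tsen34 (adjusted p = 5.80e-04) and -1.47 for Tsen54 (adjusted p = 0.00630 by edgeR's test). Both calls remained, and both fold changes became smaller by more than 1.5 times. This setting called 4.39% of the 15536 protein-coding genes lower and 1.72% higher. The parts of GC content, of depth and of the mitochondrial share in the falls were not tested. In such bulk samples, less RNA per cell and fewer cells of a type cannot be told apart.

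Tsen15 and Clp1 did not pass the test. Tsen15 (chr1:154217865-154233818, minus strand) was at 51.0 ± 23.5 CPM on the ground and 46.9 ± 22.8 CPM in space, a log2 fold change of -0.12 (SE 0.41, adjusted p = 0.919 by edgeR's test), higher in 2 matched pairs and lower in 2. Clp1 (chr2:84562261-84567507) was at 27.3 ± 8.57 and 34.0 ± 15.1 CPM (log2 fold change 0.32, SE 0.36, adjusted p = 0.721). Neither gene had groups that stood apart by location.

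Set against Tsen15 per kb of exon, the ratio of Tsen34 was 0.527 to 1.55 on the ground and 0.0370 to 0.230 in space, without overlap. The ratio of Tsen54 was 0.602 to 1.70 on the ground and 0.115 to 0.453 in space, again without overlap. On the ground the mRNAs of Tsen34 and Tsen54 were thus within 2-fold of that of Tsen15 per kb, and in space both were scarcer than it, Tsen34 the more so in all 4 libraries.

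Among the ligase genes none passed the test. Rtcb (chr10:85401382-85420568), which makes the bond between the cut exons, was at 346, 304, 298 and 298 CPM on the ground (R9wt D1, R9wt D5, R9del D1 and R9del D5) and at 320, 461, 399 and 379 CPM in space. Its space level was higher in 3 of 4 matched pairs, and the log2 fold change of 0.32 (SE 0.18) had an adjusted p of 0.375 by edgeR's test. Ddx1 (chr12:13226114-13256019), the helicase, was at 253, 278, 264 and 262 CPM on the ground and 343, 403, 395 and 338 CPM in space. Its groups did not overlap and all 4 pairs were higher in space, but the log2 fold change of 0.48 (SE 0.16) had an unadjusted p of 0.0127 and an adjusted p of 0.120 by edgeR's test. DESeq2's Wald test, which called 7.76% of genes lower and 3.96% higher, gave it an adjusted p of 0.0156, the only call among the 17 alternatives run for this gene, whose adjusted p reached 0.304.

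The remaining ligase genes were lower or little changed in value, without passing the test. Zbtb8os (chr4:129012939-129031791), encoding archease, was at 29.5 ± 4.45 CPM on the ground and 22.1 ± 3.74 CPM in space (log2 fold change -0.42, SE 0.23, adjusted p = 0.373 by edgeR's test, lower in 3 of 4 pairs). Fam98b (chr2:117075475-117097276) was at 6.48 ± 1.31 and 5.97 ± 1.25 CPM (log2 fold change -0.12, SE 0.31, adjusted p = 0.894). Rtraf, which completes the ligase complex, was at 312, 332, 199 and 193 CPM on the ground and 165, 132, 96.8 and 149 CPM in space. It was lower in all 4 pairs without overlap of the groups, with a log2 fold change of -0.93 (SE 0.25) and an adjusted p of 0.0624 by edgeR's test, or 0.0308 with the matched pairs as a block (0.0210 to 0.165 over all alternatives). A share of 25.6% of its exon length lies over Nid2 on the other strand. Trpt1 (chr19:7070621-7073534), at the low levels of 5.00 ± 2.07 and 4.19 ± 1.14 CPM, had a log2 fold change of -0.25 (SE 0.38, adjusted p = 0.795).

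**Figure D2:**
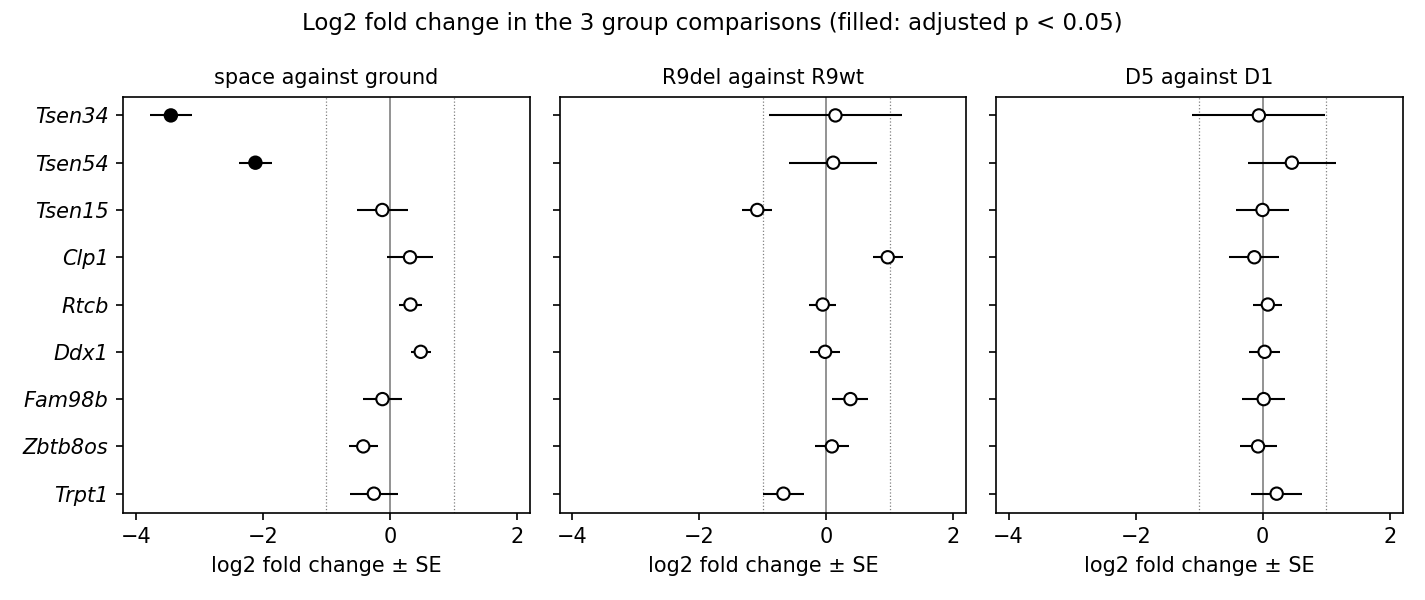
Log2 fold change with its SE (bars) of the 9 genes in the 3 group comparisons of 4 libraries each, filled where the adjusted p is under 0.05 and with dotted lines at a 2-fold change. Tsen34 (-3.45) and Tsen54 (-2.12) in space against ground are the 2 filled points, and Tsen15 (-1.09) and Clp1 (0.97) lie apart from 0 in the genotype comparison without passing.

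The second comparison asked what the deletion of Rad9, a gene of the DNA damage checkpoint clamp, changed regardless of location and duration. Tsen15 was lower and Clp1 higher in all 4 R9del libraries than in any R9wt library, each by about 2-fold, but with adjusted p-values just above 0.05. Of the 9 genes, 0 were called at an adjusted p under 0.05 by edgeR's quasi-likelihood test, by which 0.850% of all genes were lower and 1.19% higher. An unadjusted p under 0.05 was found for 2 of the 9 genes and for 4135 of all 20473, a similar share.

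Tsen15 was at 54.5 CPM (ground D1), 82.7 (ground D5), 76.9 (space D1) and 52.2 (space D5) in R9wt. In R9del it was at 37.0, 29.8, 27.6 and 30.9 CPM in the same order. The R9wt libraries spread widely, but the lowest of them stayed above the highest R9del library. The log2 fold change was -1.09 (SE 0.24, unadjusted p = 0.00104, adjusted p = 0.0506 by edgeR's test), from 66.6 ± 15.5 to 31.3 ± 4.04 CPM (SD, n = 4 each), a 2.13-fold lower level. Blocking on the matched pairs gave an adjusted p of 0.0312. It passed the thresholds of the study, as did 7.39% of all genes in this direction.

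Clp1 was at 22.6 CPM (ground D1), 17.8 (ground D5), 18.9 (space D1) and 23.7 (space D5) in R9wt. In R9del it was at 36.3, 32.5, 50.4 and 42.9 CPM. All R9del libraries lay above all R9wt libraries. The log2 fold change was 0.97 (SE 0.24, unadjusted p = 0.00240, adjusted p = 0.0689 by edgeR's test), from 20.8 ± 2.86 to 40.5 ± 7.87 CPM (SD, n = 4 each). Blocking on the matched pairs gave an adjusted p of 0.0340. Its fold change of 1.95 missed the thresholds of the study, which 6.37% of all genes passed as higher. R9del levels lay wholly below R9wt levels for 6.89% of all genes and wholly above for 7.32%.

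Over all alternatives the adjusted p ranged from 0.00123 to 0.164 for Tsen15 and from 0.00369 to 0.212 for Clp1. Both were called by edgeR's exact test, by DESeq2's Wald test, with the block and with the other 2 variables as covariates, and neither by limma-voom or with other size factors. The 4 settings that called them also called more of all genes, 3.47% lower and 3.66% higher by the exact test, 5.23% and 4.80% by the Wald test, 4.02% and 4.44% with the block, and 3.72% and 3.49% with the covariates. Both directions held in all of these and without each library in turn. Tsen15 was also called without the R9wt D1 ground library (adjusted p = 0.0475 by edgeR's test), where 1.37% of all genes were lower and 1.17% higher. Without any other single library, at most 0.208% of all genes were lower and 0.407% higher.

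**Figure D3:**
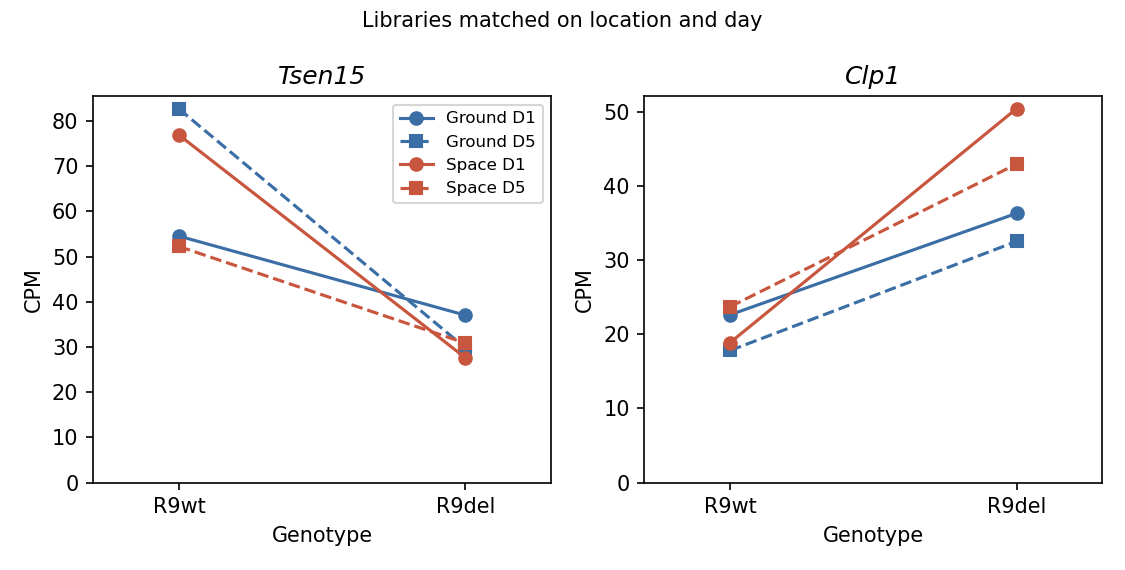
CPM of Tsen15 (left) and Clp1 (right) in R9wt and R9del, with lines joining libraries of the same location and day, both axes starting at 0. All 4 lines fall for Tsen15, from 52.2 to 82.7 CPM down to 27.6 to 37.0 CPM, and all 4 rise for Clp1, from 17.8 to 23.7 CPM up to 32.5 to 50.4 CPM.

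The remaining genes gave smaller values between the genotypes. Trpt1 was lower in R9del in all 4 pairs, at 3.54 ± 0.528 against 5.65 ± 1.66 CPM (log2 fold change -0.68, SE 0.32, adjusted p = 0.271 by edgeR's test), with overlapping groups. Fam98b was higher in all 4 pairs, at 7.04 ± 0.424 against 5.41 ± 1.23 CPM (log2 fold change 0.38, SE 0.28, adjusted p = 0.492). Tsen34 and Tsen54, called in space, had log2 fold changes of 0.14 (SE 1.04) and 0.11 (SE 0.70), where the SE is large because each genotype holds both space and ground cultures. Rtcb (-0.06), Ddx1 (-0.02) and Zbtb8os (0.09) were close to 0 on the log2 scale. The median over the 9 genes was 0.09, against -0.05 over all genes.

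Culture duration was the third variable. Between D5 and D1, 0 of the 9 genes were called by edgeR's quasi-likelihood test or in any of the 16 alternatives, and 0 had an unadjusted p under 0.05. Over all genes the share called by the quasi-likelihood test was 0% in either direction, and it was at most 0.388% in the alternatives. By the quasi-likelihood test 885 of 20473 genes had an unadjusted p under 0.05, and 1.08% were lower and 2.35% higher at the thresholds of the study. The log2 fold changes of the 9 genes lay between -0.13 for Clp1 and 0.46 for Tsen54. Tsen54 was higher on D5 in all 4 pairs, by 0.91 (R9wt) and 0.12 (R9del) on the ground and by 0.23 (R9wt) and 0.34 (R9del) in space on the log2 scale. The SE of its fold change (0.69) is large because each day group holds both space and ground cultures.

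Whether the response to space depended on genotype or duration was tested as an interaction. For location and genotype, 0% of 22561 genes were called, with 704 at an unadjusted p under 0.05, and 0 of the 9 genes had an unadjusted p under 0.05 or a call by DESeq2's Wald test. For location and day, 1 gene was called, or 0.00443%, with 1486 at an unadjusted p under 0.05. Tsen34 was the only one of the 9 with an unadjusted p under 0.05 here, at 0.0234 (log2 difference 1.13, SE 0.41, adjusted p = 0.733 by edgeR's test). In space it was higher on D5 than on D1 by 0.66 in R9wt and 1.26 in R9del on the log2 scale, and on the ground it differed by -0.12 and -0.18. For Tsen54 the same difference was -0.24 (SE 0.42, adjusted p = 0.912).

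Location took 95.5% of the variation of log2 CPM over the 8 libraries for Tsen34, 93.1% for Tsen54 and 88.0% for Ddx1. Genotype took 83.8% for Tsen15, 83.9% for Clp1, 57.4% for Trpt1 and 49.3% for Fam98b. For Rtcb and Zbtb8os location took 53.2% and 50.4%. With 8 libraries and 8 conditions these shares include the error of each library. Over the same libraries Pearson's r was 0.97 between Tsen34 and Tsen54, -0.95 between Tsen15 and Clp1, 0.82 between Rtcb and Ddx1, and 0.04 between Tsen15 and Tsen34. Among 9483 genes that averaged 10 CPM or more, those most like Tsen34 were Acaa1a and Ddost (r = 0.99 for both), and those most like Tsen54 were Phlda3 and Cyth2 (r = 0.99 for both). Of these 9483 genes, 255 had values above 0.95 with Tsen34 and 188 with Tsen54, so a value this high was not particular to this pair. No such count was made for other genes.

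Promoter sequences are shown for the 4 of the 9 genes whose groups did not overlap at about 2-fold or more, in space against ground or between genotypes. They are the 250 bases before each start in the RefSeq annotation of GRCm38.p6, a later build than that of the counts, written 5′ to 3′ on the strand of the gene. Capitals mark GC boxes (GGGCGG or its reverse complement), the site letters of Sp1-type factors. Tsen34 has 2 annotated starts, at chr7:3693360-3693609 and chr7:3694258-3694507 (plus strand). The Tsen54 sequence is chr11:115814489-115814738 (plus strand), that of Tsen15 chr1:152386683-152386932 (minus strand) and that of Clp1 chr2:84727288-84727537 (minus strand).
Tsen34, first start: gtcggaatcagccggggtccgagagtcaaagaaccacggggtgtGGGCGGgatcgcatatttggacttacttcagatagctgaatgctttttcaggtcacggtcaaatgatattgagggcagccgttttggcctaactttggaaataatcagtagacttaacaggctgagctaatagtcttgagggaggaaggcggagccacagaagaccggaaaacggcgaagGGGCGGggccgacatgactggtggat
Tsen34, second start: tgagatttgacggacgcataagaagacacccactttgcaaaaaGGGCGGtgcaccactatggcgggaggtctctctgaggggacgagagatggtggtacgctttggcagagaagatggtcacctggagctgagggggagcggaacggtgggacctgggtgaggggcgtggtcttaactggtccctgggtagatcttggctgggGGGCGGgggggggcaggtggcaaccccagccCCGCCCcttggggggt
Tsen54: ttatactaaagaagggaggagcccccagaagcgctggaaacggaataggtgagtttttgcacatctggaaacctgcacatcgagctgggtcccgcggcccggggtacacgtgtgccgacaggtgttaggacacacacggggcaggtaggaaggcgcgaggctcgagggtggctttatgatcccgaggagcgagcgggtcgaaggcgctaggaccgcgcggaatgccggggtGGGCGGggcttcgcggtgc
Tsen15: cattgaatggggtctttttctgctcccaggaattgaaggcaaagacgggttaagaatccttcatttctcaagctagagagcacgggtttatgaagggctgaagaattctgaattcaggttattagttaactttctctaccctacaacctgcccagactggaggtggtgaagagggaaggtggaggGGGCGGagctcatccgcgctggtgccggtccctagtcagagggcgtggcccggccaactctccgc
Clp1: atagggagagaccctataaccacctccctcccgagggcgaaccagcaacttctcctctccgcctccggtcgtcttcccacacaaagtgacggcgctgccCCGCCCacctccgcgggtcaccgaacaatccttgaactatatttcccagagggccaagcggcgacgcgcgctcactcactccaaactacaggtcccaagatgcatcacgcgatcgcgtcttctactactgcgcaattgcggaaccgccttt

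The letters of a GC box, read on both strands, occurred 2 times and 3 times before the 2 starts of Tsen34 and 1 time each before Tsen54, Tsen15 and Clp1. Of 32851 mouse promoters of the same length, 32.7% hold at least 1. None of the 5 sequences holds the CCAAT letters, which 33.8% of promoters do, or CCGGAAG, an ETS motif held by 6.9%. The E-box letters CACGTG occurred 1 time, before Tsen54 and apart from its GC box, and are held by 6.0% of promoters. The sequences of the pair that fell together in space therefore shared GC boxes with those of Tsen15 and Clp1. Of the 9 genes, 8 had an entry in the promoter table.

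Other genes of tRNA synthesis and processing showed a mixture in space. Of the 4 genes of the endonuclease and Clp1, 0 rose and 2 fell, and of 6 genes of the ligase complex and its cofactors 0 rose and 0 fell. Against 5.13% of all genes called lower and 1.19% higher, of 18 genes of RNase P and tRNA end processing, 0 rose and 3 fell: Pop5, a protein subunit of RNase P (log2 fold change -3.13, 40.1 ± 15.4 to 4.58 ± 0.735 CPM, adjusted p = 2.80e-04 by edgeR's test), Rpp25, another subunit (-2.64, 92.2 ± 30.5 to 14.8 ± 9.73 CPM), and Ssb, the La protein that binds the 3′ ends of new RNA polymerase III transcripts (-1.03, 182 ± 17.8 to 89.0 ± 15.4 CPM). The other 15 did not pass, among them the RNase P subunit genes Pop1 (-0.11) and Rpp30 (-0.30) and the 3′ endonuclease gene Elac2 (-0.90, adjusted p = 0.431). The exons of Ssb overlap genes on the other strand over 25.4% of their length. As with the endonuclease, some subunit genes were called and others did not pass. The Pop and Rpp genes that did not pass ran from -0.70 for Rpp25l (adjusted p = 0.156 by edgeR's test) to -0.01 for Rpp38. Among them Rpp25l, Rpp40 (-0.65), Rpp21 (-0.42) and Rpp30 were lower in all 4 matched pairs. Whether the fold changes differ between subunits was not tested.

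Of 21 tested genes of RNA polymerase III and its factors, which transcribe tRNA genes, 1 rose and 3 fell, beside the same shares over all genes. Polr3a, encoding the largest subunit, was higher in space (log2 fold change 0.83, 34.5 ± 5.34 to 61.2 ± 5.11 CPM, adjusted p = 0.0336 by edgeR's test). Gtf3a, the factor for 5S rRNA genes, fell by 2.99 on the log2 scale (80.9 ± 31.1 to 10.2 ± 2.35 CPM), Brf1, the TFIIIB subunit used at tRNA genes, by 1.34 (20.9 ± 4.77 to 8.29 ± 1.79 CPM) and the subunit gene Polr3e by 1.34 (62.2 ± 15.6 to 24.7 ± 3.56 CPM). The exons of Gtf3a overlap Mtif3 on the other strand over 59.1% of their length, so reads of these 2 genes may not be told apart. The medians of the end processing and polymerase lists were -0.21 and -0.01, beside 0.05 over all genes.

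The study drew 3 phosphodiesterase genes with Tsen34 and Tsen54, having picked them on these samples, so their direction is not independent evidence. All 3 fell: Gde1, a glycerophosphodiester phosphodiesterase (log2 fold change -2.79, 107 ± 27.0 to 15.5 ± 3.68 CPM), Tdp2, which removes topoisomerase from DNA 5′ ends (-2.31, 98.7 ± 12.8 to 19.9 ± 3.20 CPM), and Pde12, which degrades 2′,5′-oligoadenylate (-2.11, 59.6 ± 20.6 to 13.8 ± 3.99 CPM). None of these enzymes is a part of the endonuclease or the RTCB ligase. Fam98c, the paralog of Fam98b, fell from 40.3 ± 4.76 to 1.99 ± 0.184 CPM (log2 fold change -4.34, adjusted p = 2.66e-05 by edgeR's test), while Fam98a (-0.20, adjusted p = 0.677) did not pass. The exons of Fam98c overlap genes on the other strand over 56.2% of their length, and those of Pde12 over 14.9%, with the same doubt about strand. Xbp1, whose mRNA is a substrate of Rtcb, fell from 187 ± 84.8 to 27.4 ± 16.0 CPM (log2 fold change -2.77, adjusted p = 0.0131), and Ern1, the gene of the nuclease that cuts it, did not pass (-0.22, adjusted p = 0.779). Gene counts do not tell spliced from unspliced Xbp1. In R9del against R9wt and in D5 against D1, 0 genes of these lists were called by edgeR's test. Over all genes that test called 0.850% lower and 1.19% higher between genotypes and 0% in either direction between days, so these counts do not set the lists apart.

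**Figure D4:**
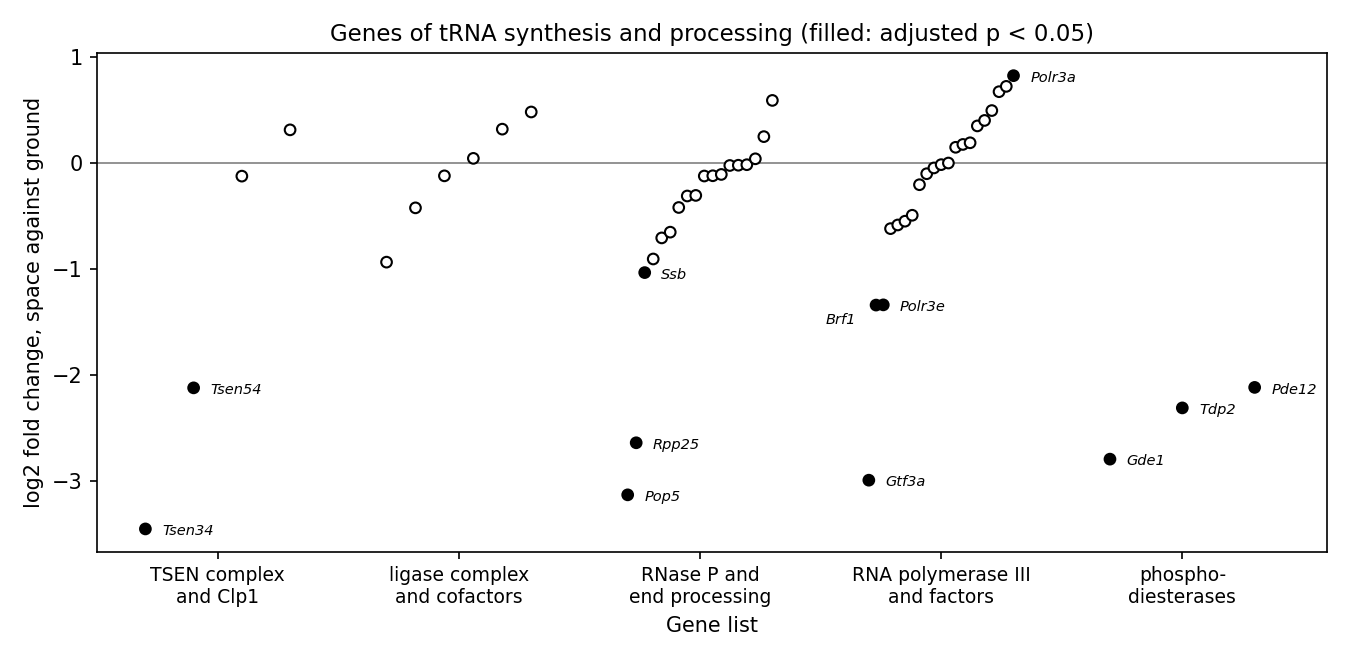
Log2 fold change of each tested gene in space against ground, in 5 lists and ordered by value within a list, with filled points and names where the adjusted p is under 0.05. The 2 called endonuclease genes, Tsen34 (-3.45) and Tsen54 (-2.12), lie among the lowest values, no gene of the ligase list is filled, and Polr3a (0.83) is the 1 filled point above 0.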

How the data were processed

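RNA was sequenced as paired-end reads in 8 libraries. According to the processing notes and methods, the authors checked reads with FastQC, aligned them to mm9 with TopHat 2.0.9 and deposited read counts per gene, whole numbers without normalization. The counting program, annotation and strand handling are not stated. Identifiers were named from the annotation of the same build, with current symbols through RefSeq synonyms (64.6% of identifiers, holding 97.1% of counts).

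Genes with low counts were removed with filterByExpr (minimum count 10), and edgeR 4.0.16 (R 4.3.3) quasi-likelihood tests with TMM factors compared 4 libraries with 4. The interactions used all libraries with the third variable as a covariate. The call was a Benjamini-Hochberg adjusted p under 0.05. Log2 CPM used a prior count of 2. The script was tested on simulated data. Alternatives used DESeq2 1.42.0, limma 3.58.1 voom, other size factors, no filter, edgeR's exact test, a block, covariates, each library left out, and GC offsets, the last chosen after seeing the data. Libraries matched on the other 2 variables deviated together (correlations of 0.330 to 0.676 for space against ground, 0.428 to 0.594 for genotype and 0.428 to 0.694 for day), which is the pairing used as the block. A count of 0 would allow up to 3 counts, or 0.0327 to 0.0514 CPM by library, for counting error only.

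The 9 genes and the lists were chosen with earlier results of these data known. All 9 are named, and of each list those called with the largest fold change (up to 3 in each direction) or with a role like that of the 9. A few of the listed genes that did not pass were named as examples after their values were seen. Not all genes of the pathway are reported here.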

Additional observations from a re-analysis of the deposited data

Results flagged for a closer look

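In 54 tests of the 9 genes in the 6 groups of 4 libraries, 2 values stood far from the other 3 of their group by Dixon's test at its 95% critical value. Chance alone marks about 1 in 20 such groups. Rtcb was at 346 CPM in the ground R9wt D1 library, where the other 3 ground libraries lay between 298 and 304 CPM (gap over range 0.891). Fam98b was at 4.53 CPM in the ground R9wt D5 library, where the other 3 ground libraries lay between 6.93 and 7.34 CPM (gap over range 0.853). No interaction was called for any of the 9 genes.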

How the results depend on the processing

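Tsen34 and Tsen54 were called lower in space in all 17 alternatives, with adjusted p-values of at most 0.00178 and 0.00630 and log2 fold changes of -3.79 to -2.81 and -2.29 to -1.47. These alternatives called 2.64% to 7.76% of all genes lower. DESeq2's Wald test added Ddx1, 3 calls in place of 2, while calling 7.76% of all genes lower and 3.96% higher. In D5 against D1 and in the interactions 0 of the 9 genes were called in all alternatives run, which called at most 0.388% of all genes in either direction. Between genotypes it was 0 in the main test and 2 (Tsen15 and Clp1) by DESeq2's Wald test, by edgeR's exact test, with matched pairs blocked or with the other 2 variables as covariates, which called 3.47% to 5.23% of all genes lower and 3.49% to 4.80% higher. It was 0 to 1 with 1 library left out, the 1 being Tsen15 without ground R9wt D1. That setting called 1.37% of all genes lower and 1.17% higher. Leaving out ground R9wt D5, ground R9del D1, space R9wt D1 or space R9del D1 called 0% of all genes. A count of 0 there says nothing about the 9 genes. The remaining leave-outs called at most 0.208% of all genes lower and 0.407% higher. The cause of these changes in the count was not tested. The block changed no other call of the 9 genes. Mean levels on the ground and in space moved by less than 1 SD with library size alone or DESeq2's size factors.

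Of genes that were not called, some changed sign. With GC offsets the log2 fold change in space was 0.15 for Tsen15. That of Ddx1 between genotypes was 0.028 by library size alone. Between D5 and D1, that of Tsen15 was 0.016 without a filter, and that of Tsen34 was 0.45 by limma-voom, 0.39 with the block and 0.40 with covariates. With 1 library left out, log2 fold changes in space ran -0.50 to 0.20 for Tsen15 and -0.48 to 0.044 for Trpt1. Between genotypes they ran -0.37 to 0.65 for Tsen34, -0.26 to 0.81 for Tsen54, -0.15 to 0.090 for Rtcb, -0.17 to 0.11 for Ddx1 and -0.069 to 0.24 for Zbtb8os. Between D5 and D1 they ran -0.39 to 0.31 for Tsen15, -0.52 to 0.53 for Tsen34, -0.38 to 0.18 for Clp1, -0.057 to 0.17 for Rtcb, -0.098 to 0.16 for Ddx1, -0.12 to 0.14 for Fam98b, -0.22 to 0.070 for Zbtb8os, -0.11 to 0.42 for Trpt1 and -0.29 to 0.41 for Rtraf.

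In space the lowest of the 9 genes had 233 to 516 counts for Tsen34, 283 to 449 for Fam98b and 193 to 381 for Trpt1. On the ground these genes had 4297 to 5194, 416 to 608 and 204 to 728 counts, so Fam98b and Trpt1 were low in both locations. Each condition is 1 culture.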
